A study of Mus musculus with 24 samples.

Results

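Gene expression in N1E-115 cells carrying the OT fusion was compared with that in untransfected N1E-115 cells, both kept in differentiation medium. N1E-115 is a mouse neuroblastoma line used as a neuronal model. The 8 samples, 4 of the OT line (OT-d) and 4 of the untransfected line (WT-d), were chosen by their titles from the 24 samples of the series and were read on Agilent two-colour arrays, each sample in the channel of its own dye. OT-d cells carry a chimeric construct in which oleosin, a protein of plant oil bodies, is joined to transcobalamin (Tcn2), the blood carrier of cobalamin (vitamin B12). The design text states that the OT fusion, made through the C-terminus of transcobalamin, shows no measurable cobalamin binding, whereas the TO fusion, made through its N-terminus, binds cobalamin strongly. WT-d cells carry no construct, so the comparison is of a transfected with a non-transfected line and not with a line carrying an empty vector. All 8 samples were grown in DMEM with 2.5% FCS and 1.25% DMSO, and the time in that medium, the promoter of the construct and the number of clones behind the OT line are not given in the sources used here. Proliferating samples (10% FCS, no DMSO) of the same lines, OT-p and WT-p, and differentiated samples of the TO line, TO-d, 4 samples each, serve as reference only. Every group had 2 samples labelled with Cy5 and 2 with Cy3 from 0.2 µg of RNA. The labels call the samples biological replicates and do not say whether they came from separate cultures, so p-values measure the spread between samples as labelled. That spread was estimated from all 24 samples of the 6 groups, not from the 8 samples alone. Replicates 2 and 4 of OT-d carry the same number in their descriptions, as do replicates 2 and 4 of WT-d, and whether each pair is 1 RNA extract is not stated.

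Neuroblastoma cells derive from the sympathoadrenal lineage, whose members make catecholamines from tyrosine through Th, Ddc and Dbh. Low serum with DMSO is a standard way to slow the division of N1E-115 cells and to let them extend neurites. Cobalamin carried by transcobalamin enters cells through the receptor Cd320 and is then used by methionine synthase (Mtr) and methylmalonyl-CoA mutase (Mmut), and the comparison addresses how far a line whose fusion does not bind cobalamin departs from its untransfected parent.

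Between 54.7% and 65.7% of spots were well above background in the 8 samples, no spot was saturated, and levels below are normalized log2 intensities, whose precision is limited by the number of arrays. Only the summed intensities of markers are linear, taken over the brightest probe of each gene with the offset of 50 per gene removed. Markers of the labelled cell type were present: all 13 sympathoadrenal markers were measured, and their summed intensity was 123740 to 146120 in OT-d and 97524 to 129290 in WT-d. Of 12 blood and endothelial markers 8 were not well above background in any group, Ptprc, Pecam1 and Cdh5 among them, and the summed intensity of the 12 was 838 to 955 in OT-d and 735 to 891 in WT-d. Of 12 glial markers 6 were not above background (Gfap, Mog, Olig1, Olig2, Aqp4 and Aldh1l1), and the sums of the 12 were 2147 to 2460 in OT-d and 3308 to 3640 in WT-d, lower in every OT-d sample, whose part in the results was not tested. Fibroblast and smooth muscle markers summed to 7693 to 8827 in OT-d and 6716 to 9443 in WT-d, with 3 of 12 not above background (Col3a1, Lum and Myh11). The arrays share slides unevenly, since 3 WT-d samples lie on slide 1, 2 OT-d samples on slide 2, and slide 3 alone holds both groups, with WT-d replicate 2 and OT-d replicates 3 and 4. OT-d replicate 3 and WT-d replicate 2 also share an array, and the other sample on the array was a proliferating one for 3 of the 4 OT-d samples and 1 of the 4 WT-d samples.

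Of 16240 genes tested, 4337 were higher in OT-d and 4079 were lower at an adjusted p under 0.05, which is 26.7% and 25.1% of the genes (limma, Benjamini-Hochberg adjustment over all genes). These 26.7% and 25.1% are the background for the shares of gene lists. The lists were chosen with earlier results of these data known, so their shares are descriptions and not tests. In each of the 6 groups of the fit, not only OT-d and WT-d, 2 samples share a number in their descriptions. With these pairs averaged in every group, 4146 were higher and 3930 lower. Most of these differences were small: 296 genes were more than 2-fold higher (1.82%) and 392 more than 2-fold lower (2.41%), and the median difference over all genes was log2 -0.014. All 4 OT-d samples lay above all 4 WT-d samples for 3251 genes (20.0%) and below them for 3177 (19.6%). Fewer cells of a kind and less RNA per cell cannot be told apart in such bulk samples. Fitted differences take the dye term and the pairing of samples on arrays into account, so they can depart from the difference of the printed means.

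Among the genes highest in OT-d relative to WT-d were a neuronal membrane protein, the dopamine-forming enzyme and a peptide hormone receptor. Gpm6b, a membrane glycoprotein of neurons and glia, read 11.36, 11.12, 10.92 and 11.02 in OT-d replicates 1 to 4 and 6.74, 6.77, 6.73 and 7.24 in WT-d replicates 1 to 4. The groups lay far apart, 3 of the 4 WT-d samples were well above background, and the fitted difference was 18.1-fold (log2 4.18, SE 0.14, adjusted p = 8.7e-16). Its size rested on the processing, since Feature Extraction's processed signal gave log2 5.75 and the mean over all probes of the gene, only 1 of them above background, log2 1.41. Ddc, the aromatic amino acid decarboxylase that turns L-DOPA into dopamine, read 11.21, 11.52, 11.59 and 11.47 in OT-d replicates 1 to 4 and 8.24, 8.53, 8.18 and 8.20 in WT-d replicates 1 to 4. No OT-d sample came near the WT-d range, and Ddc was 8.77-fold higher (SE 0.10 on the log2 scale, adjusted p = 6.09e-16). Agtr2, the type 2 angiotensin II receptor, read 11.57, 11.43, 11.24 and 11.33 in OT-d replicates 1 to 4 and 7.16, 8.72, 7.67 and 6.94 in WT-d replicates 1 to 4. Its 4 OT-d samples were tightly grouped while the WT-d samples spread over more than a log2 unit, and the fitted difference was 9.26-fold (adjusted p = 1.09e-07). Tafa1, a secreted chemokine-like protein of the brain, was 9.76-fold higher (10.74 ± 0.18 in OT-d and 7.36 ± 0.34 in WT-d, adjusted p = 4.55e-15). Nyap2, an adaptor that links neuronal receptors to PI3 kinase, was 4.74-fold higher (9.74 ± 0.12 in OT-d and 7.44 ± 0.22 in WT-d).

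Sfpq, a splicing factor and core protein of paraspeckles, was among the brightest genes of this group and read 12.66, 12.33, 12.12 and 12.23 in OT-d replicates 1 to 4 and 9.32, 10.37, 10.05 and 9.49 in WT-d replicates 1 to 4. All OT-d samples exceeded all WT-d samples, by 5.27-fold in the fit (adjusted p = 1.89e-09). Chst8 and Chst13, carbohydrate sulfotransferases of the same enzyme family, were 4.57-fold and 4.33-fold higher, with Chst8 at 9.14 ± 0.097 in OT-d and 6.91 ± 0.30 in WT-d and Chst13 at 9.52 ± 0.10 in OT-d and 7.34 ± 0.22 in WT-d. Pdlim3, a PDZ-LIM protein of the actin cytoskeleton, was 3.82-fold higher (11.05 ± 0.25 in OT-d and 9.07 ± 0.16 in WT-d, adjusted p = 5.18e-10). Olfr78, an odorant receptor, stayed near the lower end of the scale in WT-d and was 4.12-fold higher (8.78 ± 0.14 in OT-d and 6.71 ± 0.063 in WT-d). Kif26b, a kinesin-family protein, was 6.06-fold higher by its brighter probe (9.65 ± 0.072 in OT-d and 6.96 ± 0.23 in WT-d), while its other probe gave log2 -0.23. Pde4dip, a centrosome and Golgi scaffold also called myomegalin, was 4.00-fold higher by its brightest probe (11.76 ± 0.15 in OT-d and 9.67 ± 0.33 in WT-d), and its 4 probes ranged from log2 -0.22 to 2.00. CYTB, the mitochondrially encoded cytochrome b of complex III, was 3.83-fold higher (16.82 ± 0.27 in OT-d and 15.11 ± 0.42 in WT-d, adjusted p = 2.26e-06).

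Dlk1, a transmembrane Delta-like protein encoded by an imprinted locus, had the largest fitted fall of the genes tested. It read 6.47, 6.43, 7.97 and 6.19 in OT-d replicates 1 to 4 and 13.47, 12.87, 13.20 and 13.48 in WT-d replicates 1 to 4. Every OT-d sample was far below every WT-d sample, 3 of the 4 OT-d samples were well above background, and the difference was 58.3-fold in the fit by the brighter probe (log2 -5.87, SE 0.42, adjusted p = 1.48e-10), with log2 -4.28 by the other. The fall was log2 -6.47 without OT-d replicate 3 and log2 -7.94 with the processed signal, and ran from log2 -7.94 to -5.10 over the settings tried. The highest OT-d value was that of replicate 3, the one that shares its array with a WT-d sample, and the part of the other dye in it was not tested. Galnt15, which starts O-linked glycosylation, read 7.61, 7.34, 7.95 and 7.45 in OT-d replicates 1 to 4 and 11.07, 11.07, 10.81 and 10.84 in WT-d replicates 1 to 4. The groups did not overlap and Galnt15 was 9.79-fold lower in OT-d (adjusted p = 5.49e-10). Pcolce, which speeds the trimming of procollagen, read 11.21, 11.21, 11.20 and 11.11 in OT-d replicates 1 to 4 and 13.88, 14.04, 13.82 and 14.09 in WT-d replicates 1 to 4. Its spread within either group was small beside the 7.04-fold lower level of OT-d (SE 0.062, adjusted p = 3.67e-19).

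Ctla2a and Ctla2b, near-identical inhibitors of cysteine proteases whose probes may share signal, were 6.91-fold and 6.41-fold lower (Ctla2a 11.39 ± 0.065 in OT-d and 14.24 ± 0.39 in WT-d, Ctla2b 10.30 ± 0.17 in OT-d and 13.01 ± 0.23 in WT-d). Osgin1, a stress-induced growth inhibitor, was 5.79-fold lower (8.83 ± 0.10 in OT-d and 11.40 ± 0.10 in WT-d, adjusted p = 8.61e-13). Entpd2, an ectonucleotidase that hydrolyses extracellular ATP, was 5.56-fold lower (8.22 ± 0.22 in OT-d and 10.77 ± 0.070 in WT-d). Kif21b, a neuronal kinesin, was 5.48-fold lower (8.65 ± 0.32 in OT-d and 11.08 ± 0.24 in WT-d). Tram2, a translocon-associated protein used in collagen synthesis, was 6.07-fold lower (7.57 ± 0.31 in OT-d and 10.37 ± 0.46 in WT-d), Tmem63a, an osmosensitive cation channel, 5.48-fold lower (8.38 ± 0.17 in OT-d and 10.96 ± 0.20 in WT-d), and Ptgs1, the constitutive cyclooxygenase, 4.96-fold lower (10.05 ± 0.19 in OT-d and 12.44 ± 0.33 in WT-d). Egr1, the immediate early zinc finger factor, read 9.71, 9.49, 9.52 and 9.31 in OT-d replicates 1 to 4 and 11.36, 12.45, 11.76 and 11.33 in WT-d replicates 1 to 4, which placed all OT-d samples below all WT-d samples at 5.18-fold (adjusted p = 4.22e-10). The brightest probe stands for each gene, and where other probes of these genes were measured they gave smaller differences, of the same sign except for Kif26b and Pde4dip, given above: as low as log2 1.44 for Tafa1, 1.90 for Ddc, 0.71 for Nyap2 and 0.36 for Sfpq, and as little as -1.20 for Rsad2, -0.52 for Osgin1 and -0.14 for Kif21b. With the mean over probes the differences of Kif26b, Sfpq, Pde4dip and Kif21b were log2 1.19, 1.38, 0.32 and -1.03, and those of Tafa1, Ddc, Nyap2, Rsad2 and Osgin1 were log2 2.31, 2.52, 1.48, -1.79 and -1.55. With the processed signal those of Tafa1, Kif26b, Nyap2, Chst8, Chst13 and Olfr78 rose to log2 4.00, 3.76, 2.86, 3.29, 2.95 and 3.21, and those of Galnt15 and Tram2 went to -3.88 and -3.23. Agtr2 was log2 3.84 with samples of 1 number averaged and 2.56 on slide 3, and CYTB 2.62 on the shared array.

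**Figure D1:**
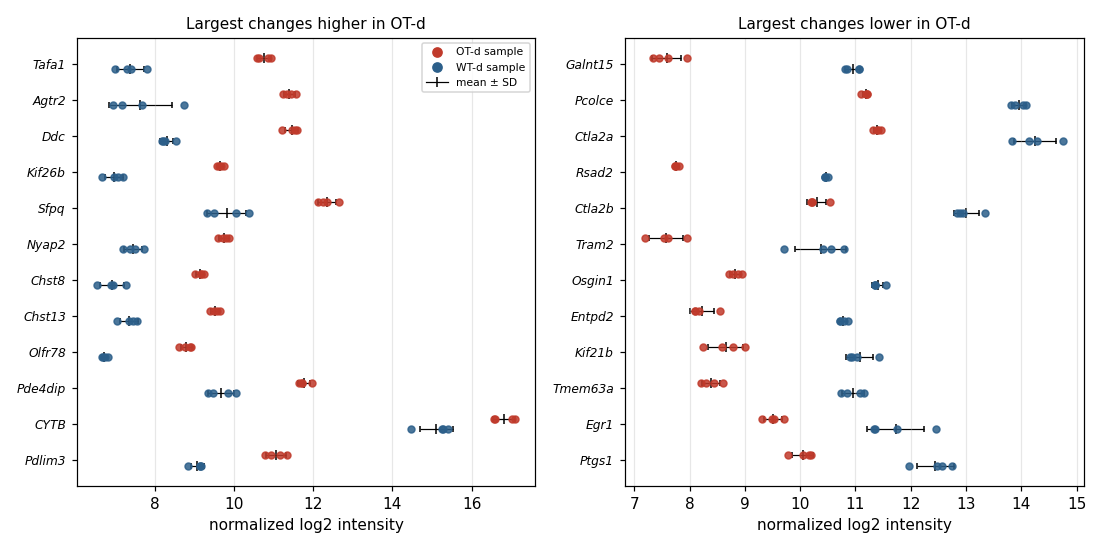
Normalized log2 intensity of the 12 genes with the largest change in either direction that were well above background in all 8 samples, OT-d in red and WT-d in blue, 1 point per sample, with mean and SD. For each gene the points of the groups do not overlap, which the choice of genes required.

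A gene not well above background in any sample of one group has only a bound on its fold. Counted here were genes with a gene symbol, clone and predicted names left out, called at an adjusted p under 0.05 and with a positive log2 bound. Of these, 30 were well above background in every OT-d sample and no WT-d sample, and 18 in every WT-d sample and no OT-d sample. Izumo3, a member of the sperm-egg fusion protein family, was at least 16.4-fold higher in OT-d (10.38 ± 0.13 in OT-d and 6.23 ± 0.29 in WT-d, adjusted p = 3.78e-18). Ndc80, a kinetochore protein, and Ckap2l, a mitotic spindle protein, were at least 1.76-fold and 1.66-fold higher, and Myl1, a myosin light chain, at least 1.65-fold. In the other direction Kcnip4, which modulates A-type potassium channels, was at least 12.7-fold lower in OT-d (6.20 ± 0.25 in OT-d and 9.87 ± 0.34 in WT-d), Lad1, a basement membrane protein, at least 6.80-fold, Akip1, which binds protein kinase A, at least 3.68-fold and Cd83, a surface glycoprotein of immune cells, at least 2.52-fold. For a bound, each dim value below the faintest signal that still counted as well above background in that sample was replaced by that signal, and the mean of the dimmer group was then set against the mean of the brighter one.

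Most genes of cobalamin uptake and use did not pass the test. Of 18 members tested 2 were higher (11.1%) and 4 lower (22.2%), with a median of log2 -0.065. Tcn2, the endogenous carrier and the gene whose product is fused, read 9.00, 9.09, 9.08 and 9.09 in OT-d replicates 1 to 4 and 9.05, 9.02, 8.83 and 8.70 in WT-d replicates 1 to 4, and its groups overlapped (log2 0.17, adjusted p = 0.144). Whether its probe also detects the construct is not known from the labels. Cd320, the cellular receptor for loaded transcobalamin, read 10.67, 10.68, 10.36 and 10.84 in OT-d replicates 1 to 4 and 11.47, 11.06, 11.62 and 11.80 in WT-d replicates 1 to 4. All OT-d samples were below all WT-d samples and the level was 1.79-fold lower (adjusted p = 3.94e-07). Mtrr, which reactivates methionine synthase, was 2.24-fold lower (7.23 ± 0.042 in OT-d and 8.45 ± 0.23 in WT-d, adjusted p = 2.62e-08), and its other probes went as little as log2 -0.26. Mtr (log2 -0.086, adjusted p = 0.447), Mmut (log2 0.034, adjusted p = 0.671) and Mmachc (log2 0.22, adjusted p = 0.119) did not pass, although Mmachc passed without WT-d replicate 2 (log2 0.48, adjusted p = 0.000843). Zfp143, a transcription factor that acts on the Mmachc promoter with Hcfc1, was 1.79-fold lower, Hcfc1 1.30-fold higher, and Prdx1, a peroxiredoxin, 1.26-fold higher. Among the genes of folate, methionine and serine metabolism, 9 of 37 were higher (24.3%) and 14 lower (37.8%, median log2 -0.059), among them Sat1, which acetylates polyamines (3.87-fold lower), Aldh1l2, the mitochondrial formyltetrahydrofolate dehydrogenase (1.93-fold lower), Cth and Phgdh (1.68-fold and 1.66-fold lower), while Tyms, thymidylate synthase, was 1.88-fold higher.

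Genes of catecholamine synthesis were higher in OT-d. Th, the tyrosine hydroxylase that sets the rate of the pathway, read 12.73, 12.84, 12.98 and 12.97 in OT-d replicates 1 to 4 and 12.31, 12.35, 12.24 and 12.15 in WT-d replicates 1 to 4. OT-d lay above WT-d in every sample, by 1.54-fold (adjusted p = 1.45e-06). Dbh, which converts dopamine to noradrenaline, read 12.95, 13.15, 13.32 and 13.32 in OT-d replicates 1 to 4 and 11.88, 11.76, 11.46 and 11.81 in WT-d replicates 1 to 4, a 2.73-fold difference with no overlap (adjusted p = 5.19e-10). With Ddc, given above, these enzymes span every step from tyrosine to noradrenaline. Pts and Spr, which make the tetrahydrobiopterin cofactor of Th, were 2.03-fold and 1.93-fold higher (Pts 11.05 ± 0.091 in OT-d and 10.01 ± 0.24 in WT-d, Spr 12.60 ± 0.17 in OT-d and 11.65 ± 0.11 in WT-d). Maoa, which degrades monoamines, and Slc18a2, the vesicular monoamine transporter, were 1.62-fold and 1.53-fold higher. Pnmt, which would take noradrenaline on to adrenaline, did not pass the test (log2 -0.14, adjusted p = 0.396). Of 16 members tested 11 were higher (68.8%) and 0 lower (0%), with a median of log2 0.31, and the remaining 5 did not pass.

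The transcription factors of the sympathoadrenal lineage moved the same way for the most part. Gata3 rose 2.84-fold (13.14 ± 0.12 in OT-d and 11.62 ± 0.29 in WT-d, adjusted p = 4.19e-10), and the homeobox factor Phox2a rose 1.69-fold. Insm1, a zinc finger factor of endocrine and neural progenitors, and Mycn, the proto-oncogene often amplified in neuroblastoma, rose 2.05-fold and 2.06-fold (adjusted p = 4.17e-07 and 7.33e-08). Tlx2 was 1.24-fold lower but lost its call under 12 of 22 other settings (adjusted p up to 0.219), among them those without OT-d replicate 1 or 2 or without WT-d replicate 1 or 2, and Isl1 (log2 -0.10) did not pass. Of 19 members tested 11 were higher (57.9%) and 1 lower (5.26%), with a median of log2 0.44, Tlx2 being the lower one. Of the 7 cholinergic genes tested, Chrnb2, a nicotinic receptor subunit, rose 1.79-fold, and Ache, acetylcholinesterase, did not pass (log2 0.085, adjusted p = 0.705).

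Genes of the neuronal cytoskeleton and of neurite growth were also higher. Nefh, the heavy neurofilament protein, rose 3.07-fold (11.44 ± 0.055 in OT-d and 9.81 ± 0.13 in WT-d, adjusted p = 2.36e-12), and Tuba1a, the main neuronal alpha-tubulin, 2.72-fold (17.16 ± 0.17 in OT-d and 15.79 ± 0.41 in WT-d). Dpysl3, a collapsin response mediator, and Gap43, a protein of growth cones, rose 2.67-fold and 2.30-fold. Mapt, the microtubule-associated protein tau, and Nrcam, a neuronal adhesion molecule, fell 1.64-fold and 1.38-fold, although the 3 probes of Nrcam ran from log2 -0.47 to 0.074. Gpm6b and Kif21b, given above, belong to the same list and had its largest rise and fall, at log2 4.18 and -2.46. Other probes of Kif21b fell by as little as log2 -0.14. Of 29 members tested 20 were higher (69%) and 4 lower (13.8%), with a median of log2 0.52.

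Axon guidance genes divided by member. Slit2, a secreted repellent that acts through Robo receptors, rose 2.96-fold by its brightest probe, Plxna4, a plexin receptor for semaphorins, 2.91-fold, and the ephrin receptors Ephb2 and Epha7 2.68-fold and 2.47-fold. Nrp2, the semaphorin co-receptor, fell 2.40-fold, and with it Sema3f, its ligand, 1.99-fold, Efna1 1.87-fold and the netrin receptor Unc5b 1.79-fold. Other probes gave as little as log2 -0.063 for Slit2, 0.22 for Plxna4 and -0.11 for Sema3f. Of 29 members tested 16 were higher (55.2%) and 7 lower (24.1%), with a median of log2 0.53. On slide 3 alone the list's median was log2 0.18. Synaptic and secretory granule genes were mixed: 12 of 31 were higher (38.7%) and 7 lower (22.6%, median log2 0.085), the lower share being near the 25.1% of all genes. Syn2, which tethers synaptic vesicles, rose 2.59-fold (other probes from log2 0.022) and Pcsk2, a prohormone convertase, 2.25-fold, whereas Rab3b fell 1.72-fold and Unc13a, which primes vesicles, fell 4.37-fold by its brighter probe, against log2 0.27 by the other. Of 31 ion channel and receptor genes 9 rose and 5 fell, against 26.7% and 25.1% of all genes, with Scn3a and Cacna1b, voltage-gated sodium and calcium channels, up 1.91-fold and 1.81-fold. Agtr2 and Kcnip4, given above, had the largest rise and fall of that list, at log2 3.21 and at least 12.7-fold lower.

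Mitotic genes were higher in OT-d. Of 46 members tested 36 were higher (78.3%) and 0 lower (0%), with a median of log2 0.85, and 20 members were more than 2-fold higher, where 1.82% of all genes were. Ccna2, the cyclin of S phase and mitosis, read 9.07, 9.35, 9.03 and 9.35 in OT-d replicates 1 to 4 and 6.94, 7.25, 6.96 and 8.28 in WT-d replicates 1 to 4. The OT-d samples lay above all WT-d samples, by 3.31-fold in the fit (adjusted p = 2.8e-08). Mki67, the proliferation marker Ki-67, read 9.01, 9.22, 9.11 and 9.14 in OT-d replicates 1 to 4 and 7.27, 7.51, 7.35 and 8.17 in WT-d replicates 1 to 4, a 2.75-fold difference (adjusted p = 2.27e-07). Cenpf, a kinetochore protein, Kif20a, a kinesin of cytokinesis, Pttg1, securin, and Ccnb2, cyclin B2, were 3.03-fold, 2.99-fold, 2.86-fold and 2.56-fold higher, although the other probe of Cenpf gave log2 0.15. Cdk1, the main mitotic kinase, did not pass (log2 0.28, adjusted p = 0.278), but did so without WT-d replicate 4 (log2 0.59, adjusted p = 0.016). WT-d replicate 4 stood above the other WT-d samples in these genes. With each gene set to its mean over the 8 samples, the median of the 46 genes was 0.31, 0.54, 0.38 and 0.61 in OT-d replicates 1 to 4 and -0.63, -0.57, -0.63 and 0.17 in WT-d replicates 1 to 4 (log2). Each OT-d sample was thus above each WT-d sample in the median, and 19 of the 46 genes showed no overlap of the groups (20.0% of all genes did so in that direction).

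WT-d replicate 4 was the WT-d sample that shared its array with a proliferating sample, as OT-d replicates 1, 2 and 4 did. In the pair without such a partner, OT-d replicate 3 and WT-d replicate 2 on 1 array, the OT-d sample was higher for 45 of the 46 genes, with a median of log2 0.92 against 0.85 in the fit of all samples. That pair is 1 sample of each group and was not tested, and its median over all genes was log2 -0.0079. With the medium of the array partner as a covariate, 36 of the 46 genes were higher, and without WT-d replicate 4 the count was 42. The part of the array partner in the level of WT-d replicate 4 was not tested further. WT-d replicates 2 and 4 carry the same number in their descriptions, yet their medians of the 46 genes were -0.57 and 0.17. Over all genes the SD of the difference between these samples was log2 0.41, the largest of any pair within OT-d or WT-d. What sets them apart was not tested. OT-d replicates 2 and 4, which also share a number, had the smallest such SD, log2 0.18. Deviations from the group mean and dye term correlated at 0.214 in that OT-d pair and at -0.595 in the WT-d pair. Whether either pair is 1 RNA extract was not tested.

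Genes of DNA replication were less uniform. Of 46 members tested 19 were higher (41.3%) and 6 lower (13%), with a median of log2 0.18, and without OT-d replicate 1 the higher count was 11. Mcm5 and Mcm3, subunits of the replicative helicase, were 3.12-fold and 2.63-fold higher, and Mcm5 read 9.85, 10.70, 8.96 and 10.58 in OT-d replicates 1 to 4 and 7.18, 7.40, 7.05 and 10.59 in WT-d replicates 1 to 4. WT-d replicate 4 fell within the OT-d range for Mcm5, while the other 3 WT-d samples lay below all OT-d samples, and without WT-d replicate 2 its adjusted p was 0.0644. Without WT-d replicate 4 the difference of Mcm5 was log2 2.54, against 1.64 with all samples. Pole and Mcm2 were 1.96-fold and 1.81-fold higher, and Rfc4, a clamp loader subunit, Ung, a DNA glycosylase, and Cdt1, a licensing factor, were 2.16-fold, 1.78-fold and 1.67-fold lower. Among cell-cycle inhibitors and p53 targets, 7 of 35 were higher (20%) and 15 lower (42.9%, median log2 -0.097). Cdkn1a, the inhibitor p21, fell 2.30-fold (8.55 ± 0.13 in OT-d and 9.79 ± 0.29 in WT-d, adjusted p = 5.62e-08), Cdkn2c, p18, 2.12-fold, and the growth arrest genes Gadd45g and Gadd45b 2.48-fold and 1.97-fold. Ccnd1, cyclin D1, and its partner Cdk4 rose 1.77-fold and 1.68-fold.

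**Figure D2:**
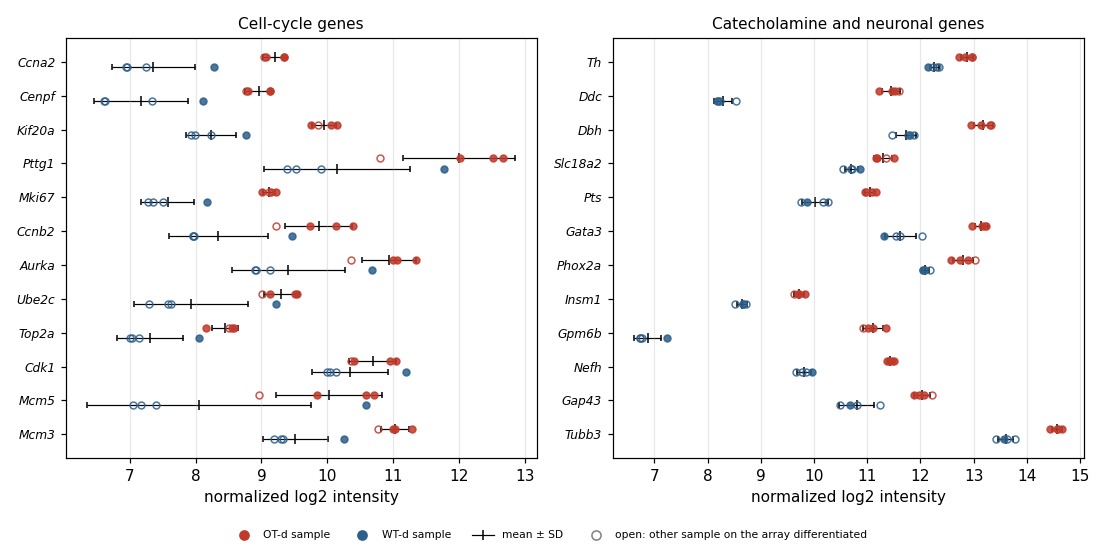
Normalized log2 intensity of 12 cell-cycle genes (left) and 12 catecholamine and neuronal genes (right), OT-d in red and WT-d in blue, with mean and SD, with open points for samples whose array partner was also differentiated. In the left panel the filled WT-d point, replicate 4, lies above the open ones for every gene, and in the right panel the groups are apart for every gene shown.

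Promoters of the mitotic genes are shown because their members moved together. The cell-cycle homology region (CHR), TTTGAA, was searched on both strands in RefSeq windows of 250 bases before to 50 after each start (GRCm38.p6). It occurred in 20 of 31 (64.5%) of the mitotic genes called higher, 6 of 8 (75%) of those not called higher and 1593 of 10969 (14.5%) of all tested genes with a window. The stretches below end at or before the start site, with the match in capitals, for Mki67 (chr7:135716432-135716535, minus strand), Ccnb2 (chr9:70421676-70421761, minus strand) and Ube2c (chr2:164769860-164769928, plus strand), the ubiquitin-conjugating enzyme of the anaphase-promoting complex, which were 2.75-fold, 2.56-fold and 2.47-fold higher.
Mki67: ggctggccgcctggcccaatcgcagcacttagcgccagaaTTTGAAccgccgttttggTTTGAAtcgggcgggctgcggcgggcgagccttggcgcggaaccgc
Ccnb2: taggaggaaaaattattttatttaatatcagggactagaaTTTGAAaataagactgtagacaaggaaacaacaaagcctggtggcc
Ube2c: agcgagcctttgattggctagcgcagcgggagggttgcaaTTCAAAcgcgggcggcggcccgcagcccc

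More splicing factor genes were higher than lower. Of 45 members tested 26 were higher (57.8%) and 6 lower (13.3%), with a median of log2 0.41. After Sfpq, Rbm3, a cold-inducible RNA-binding protein, rose 3.07-fold (12.51 ± 0.13 in OT-d and 10.83 ± 0.25 in WT-d), Rbfox1, a neuronal splicing regulator, 2.89-fold, and Hnrnpa2b1 2.29-fold, with other probes at log2 0.23 for Rbm3 and 0.10 for Hnrnpa2b1. Hnrnph3, Hnrnpdl and Mbnl1 fell 2.05-fold, 1.99-fold and 1.49-fold, and the 4 probes of Hnrnpdl ran from log2 -0.99 to 0.25. Nuclear pore and export genes had 26 of 60 members higher (43.3%) and 13 lower (21.7%, median log2 0.16), none of them over 2-fold. Nxf1, the main mRNA export receptor, rose 1.97-fold and Nup153, a basket nucleoporin, fell 1.72-fold. Proteins of mRNA stability and stress granules were split, with 10 of 40 members higher (25%) and 12 lower (30%, median log2 0.024). Elavl1, which encodes HuR, rose 1.31-fold by its brightest probe (12.20 ± 0.094 in OT-d and 11.71 ± 0.29 in WT-d, adjusted p = 0.000587), but its 3 probes ran from log2 -0.75 to 1.02, and on slide 3 the brightest gave log2 0.11. Elavl4 (HuD) rose 1.97-fold and Elavl2 (HuB) fell 1.78-fold by the brighter of its probes, against log2 -0.063 by the other.

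Sirt1, an NAD-dependent deacetylase, rose 1.32-fold (9.53 ± 0.072 in OT-d and 9.12 ± 0.19 in WT-d, adjusted p = 0.00147), as did Ppp2ca, the catalytic subunit of PP2A, 1.41-fold (13.39 ± 0.075 in OT-d and 12.91 ± 0.12 in WT-d, adjusted p = 3.53e-05). Among arginine methyltransferases and PP2A genes, 17 of 30 were higher (56.7%) and 7 lower (23.3%, median log2 0.24). Prmt6 and Prmt2 rose 2.06-fold and 1.78-fold, and Ensa, which inhibits PP2A bound to its B55 subunit, 2.55-fold, with other probes down to log2 0.082 for Prmt6 and 0.058 for Ensa. Ppp2r2a, a B55 subunit, fell 1.68-fold. Of the sirtuins and the enzymes of DNA and histone methylation, 8 of 29 were higher (27.6%) and 5 lower (17.2%, median log2 0.11), a higher share near the 26.7% of all genes. Ezh2, the catalytic subunit of Polycomb repressive complex 2, rose 1.44-fold while its partners Suz12 and Eed fell 1.44-fold and 1.32-fold, and the de novo DNA methyltransferase Dnmt3a rose 1.37-fold by its brightest probe, with its probes from log2 -0.30 to 0.58.

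Genes of the integrated stress response, the programme that ATF4 drives when eIF2alpha is phosphorylated, were lower. Of 32 members tested 3 were higher (9.38%) and 18 lower (56.2%), with a median of log2 -0.35. Ddit3, the factor CHOP, read 11.37, 11.50, 11.40 and 11.44 in OT-d replicates 1 to 4 and 12.55, 12.49, 12.48 and 12.76 in WT-d replicates 1 to 4. All OT-d samples were below all WT-d samples, by 2.21-fold (adjusted p = 4.82e-08). Nupr1, a stress-induced chromatin protein, fell 3.88-fold (11.05 ± 0.18 in OT-d and 12.96 ± 0.079 in WT-d), Trib3, a pseudokinase induced by CHOP, 3.29-fold (12.24 ± 0.087 in OT-d and 13.91 ± 0.28 in WT-d), Cebpb 3.01-fold and Gdf15, a stress cytokine, 2.70-fold. Slc7a3, a cationic amino acid transporter, Eif2ak2, the RNA-activated eIF2alpha kinase, and Slc38a2 rose 2.22-fold, 1.90-fold and 1.81-fold. Asns, another target of ATF4, did not pass (log2 -0.046, adjusted p = 0.776). The aminoacyl-tRNA synthetases showed 6 of 19 members higher (31.6%) and 3 lower (15.8%, median log2 0.090).

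The C/EBP-ATF response element TGATGNAA, searched on both strands in the same windows, occurred in 5 of 16 (31.2%) of the stress response genes called lower, 4 of 12 (33.3%) of the others and 315 of 10969 (2.87%) of all tested genes. It is shown for Nupr1 (chr7:126625533-126625620, minus strand) and Jdp2 (chr12:85599343-85599415, plus strand), a bZIP repressor that was 2.33-fold lower, the members with the largest falls that hold it before the start, with the match in capitals.
Nupr1: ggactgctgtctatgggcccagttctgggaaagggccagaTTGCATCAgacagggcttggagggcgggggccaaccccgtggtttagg
Jdp2: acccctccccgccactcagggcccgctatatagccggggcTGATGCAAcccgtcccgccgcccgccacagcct

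Genes of the unfolded protein response, which raises the folding capacity of the endoplasmic reticulum (ER), were more often lower than higher, though its best known chaperone did not pass. Hspa5, the chaperone BiP, read 14.80, 14.64, 14.64 and 14.75 in OT-d replicates 1 to 4 and 14.60, 14.61, 14.44 and 14.71 in WT-d replicates 1 to 4, with overlapping groups (log2 0.078, adjusted p = 0.414). Of the list of unfolded protein response and ER chaperone genes, 5 of 29 were higher (17.2%) and 12 lower (41.4%, median log2 -0.099). Ero1a, the oxidase of disulfide formation, Sel1l and Derl1, parts of the ER degradation machinery, fell 4.94-fold, 3.14-fold and 2.06-fold by their brightest probes (others up to log2 -1.10, -0.56 and 0.096), and Sec61b, a translocon subunit, rose 1.58-fold. Of the cytosolic chaperones, 10 of 20 were higher (50%) and 3 lower (15%, median log2 0.22). Hsph1 and Hsp90aa1 rose 2.31-fold and 2.18-fold (Hsph1 14.96 ± 0.065 in OT-d and 13.72 ± 0.26 in WT-d, Hsp90aa1 16.64 ± 0.17 in OT-d and 15.56 ± 0.48 in WT-d). Among Nrf2 targets and antioxidant enzymes, 5 of 28 were higher (17.9%) and 11 lower (39.3%, median log2 -0.14), with Hmox1, heme oxygenase 1, and Nqo1, a quinone reductase, 2.29-fold and 2.23-fold lower and Txn1, thioredoxin, 1.33-fold higher.

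Interferon-stimulated genes and MHC class I genes were lower in OT-d. Rsad2, the antiviral protein viperin, read 7.81, 7.75, 7.74 and 7.73 in OT-d replicates 1 to 4 and 10.45, 10.45, 10.46 and 10.50 in WT-d replicates 1 to 4. The spread within these groups was very small, and OT-d was 6.62-fold lower (SE 0.22, which draws on the spread in all 6 groups, adjusted p = 9.63e-10). Isg15, a ubiquitin-like modifier, read 8.97, 8.42, 7.89 and 8.31 in OT-d replicates 1 to 4 and 10.28, 10.40, 10.86 and 10.18 in WT-d replicates 1 to 4, a 4.20-fold fall (adjusted p = 6.35e-08). Isg20, an exonuclease, and Ifit1, which binds viral RNA, fell 3.75-fold and 3.49-fold (Isg20 9.17 ± 0.16 in OT-d and 11.25 ± 0.15 in WT-d, Ifit1 7.50 ± 0.33 in OT-d and 9.19 ± 0.47 in WT-d). Stat2, a transducer of type I interferon signals, rose 1.74-fold, and Irf9 did not pass (log2 0.097, adjusted p = 0.357). Of 30 members tested 2 were higher (6.67%) and 19 lower (63.3%), with a median of log2 -0.38. H2-K1, a classical MHC class I heavy chain, read 13.10, 13.11, 13.13 and 13.26 in OT-d replicates 1 to 4 and 14.10, 14.43, 14.29 and 14.50 in WT-d replicates 1 to 4, 2.36-fold lower (adjusted p = 1.14e-07). B2m, the light chain of every class I molecule, fell 1.95-fold by its brightest probe (11.94 ± 0.11 in OT-d and 12.85 ± 0.054 in WT-d, other probes up to log2 -0.11), H2-M3 3.95-fold and Psmb9, an immunoproteasome subunit, 2.51-fold. Of 12 members tested 0 were higher (0%) and 9 lower (75%), with a median of log2 -0.60. Class I genes of the mouse are similar in sequence, and their probes may read more than 1 of them. The blood marker Ptprc was not above background in any group.

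The interferon-stimulated response element, searched on both strands as GAAA, any 2 bases and GAAA again, occurred in 5 of 11 (45.5%) of the interferon genes called lower, 6 of 10 (60.0%) of those not called lower and 391 of 10969 (3.56%) of all tested genes with a window. The 3 members with the largest falls that carry it before the start are shown with the matches in capitals: Rsad2 (chr12:26456523-26456612, minus strand), Isg15 (chr4:156200835-156200936, minus strand) with overlapping matches, and Ifit1 (chr19:34640745-34640853, plus strand). None of the 3 searched motifs contains another.
Rsad2: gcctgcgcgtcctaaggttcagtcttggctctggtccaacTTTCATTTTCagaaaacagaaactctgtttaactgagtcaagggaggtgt
Isg15: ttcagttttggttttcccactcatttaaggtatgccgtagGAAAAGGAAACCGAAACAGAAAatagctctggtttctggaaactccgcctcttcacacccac
Ifit1: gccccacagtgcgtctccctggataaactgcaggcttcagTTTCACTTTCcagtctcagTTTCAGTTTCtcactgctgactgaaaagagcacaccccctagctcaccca

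Extracellular matrix genes were lower in OT-d as well. Of 36 members tested 5 were higher (13.9%) and 21 lower (58.3%), with a median of log2 -0.42, and 8 of them were over 2-fold lower (2.41% of all genes). After Pcolce, Fbln2, a fibulin, and Nid1, a basement membrane linker, fell 3.89-fold and 3.06-fold (Fbln2 11.69 ± 0.28 in OT-d and 13.72 ± 0.28 in WT-d, Nid1 6.67 ± 0.067 in OT-d and 8.27 ± 0.11 in WT-d), and Col18a1 2.67-fold. Itga1, a collagen-binding integrin, and Lama4, a laminin chain, rose 1.78-fold and 1.59-fold. Among genes of TGF-beta, BMP and Wnt signalling, 5 of 40 were higher (12.5%) and 19 lower (47.5%, median log2 -0.24). Tgfbi, a matrix protein induced by TGF-beta, fell 4.49-fold (9.73 ± 0.21 in OT-d and 11.88 ± 0.16 in WT-d), Id1 and Id3, inhibitors of bHLH factors induced by BMP, 2.67-fold and 2.60-fold, and Fzd7 2.29-fold by its brighter probe (the other at log2 0.21). Lgr5, a receptor for R-spondins, and Fzd2 rose 2.77-fold and 2.25-fold. Of the immediate early and ERK feedback genes, 4 of 29 were higher (13.8%) and 13 lower (44.8%, median log2 -0.27), with Ier3 and Egr2 down 2.71-fold and 2.60-fold alongside Egr1, and Jun and Dusp1, a MAP kinase phosphatase, up 2.19-fold and 2.14-fold.

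Genes of sterol and fatty acid synthesis were higher. Of 36 members tested 19 were higher (52.8%) and 2 lower (5.56%), with a median of log2 0.39. Nsdhl, Lss and Fdps, enzymes of the sterol pathway, rose 2.16-fold (8.85 ± 0.074 in OT-d and 7.72 ± 0.20 in WT-d), 2.02-fold (11.56 ± 0.20 in OT-d and 10.61 ± 0.11 in WT-d) and 1.84-fold (13.26 ± 0.18 in OT-d and 12.29 ± 0.19 in WT-d), and Elovl6, which elongates fatty acids, 1.70-fold. Tm7sf2, a sterol reductase, fell 1.59-fold. Genes of glycolysis and the hypoxia response showed 4 of 36 members higher (11.1%) and 12 lower (33.3%, median log2 -0.18). Vegfa and Adm, secreted targets of hypoxia-inducible factors, fell 3.96-fold and 3.78-fold (other probes of Vegfa up to log2 -0.54), Hk2, hexokinase 2, and Slc2a1, the glucose transporter GLUT1, 2.69-fold and 2.17-fold, and Ldha did not pass (log2 0.18). Of the oxidative phosphorylation subunits 28 of 52 were higher (53.8%) and 6 lower (11.5%, median log2 0.20), with Cycs, cytochrome c, 1.77-fold and Cyc1, a subunit of complex III, 1.50-fold higher. Cytosolic ribosomal protein genes mostly did not pass, with 5 of 66 members higher (7.58%) and 16 lower (24.2%, median log2 -0.11). Lysosomal genes had 10 of 36 members higher (27.8%) and 13 lower (36.1%, median log2 -0.097), the higher share near that of all genes, with Hexa, a subunit of beta-hexosaminidase, 2.35-fold lower, and Atp6v1e1, a subunit of the proton pump, 1.61-fold higher.

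Several imprinted genes were lower with Dlk1. Phlda2, a growth-restraining gene of the placenta, and H19, a long noncoding RNA, fell 2.30-fold and 1.81-fold (the other H19 probe at log2 -0.17), Igf2, a fetal growth factor, was not well above background in any OT-d sample, and Mest rose 1.54-fold. Meg3, the noncoding RNA expressed from the other allele of the Dlk1 locus, fell 1.40-fold (7.37 ± 0.11 in OT-d and 7.89 ± 0.11 in WT-d, adjusted p = 0.0002), far less than Dlk1. Of 17 members tested 2 were higher (11.8%) and 9 lower (52.9%), with a median of log2 -0.32. The 5 Magea genes tested, cancer-testis antigens encoded on the X chromosome by copies so alike that a probe may read several of them, rose together by log2 0.47 to 0.57. Actin-binding and contractile genes had 15 of 32 members higher (46.9%) and 3 lower (9.38%, median log2 0.19), with Tmsb4x and Tmsb10, thymosins that hold actin monomers, up 2.72-fold and 1.92-fold and Cnn2, a calponin, down 2.66-fold.

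**Figure D3:**
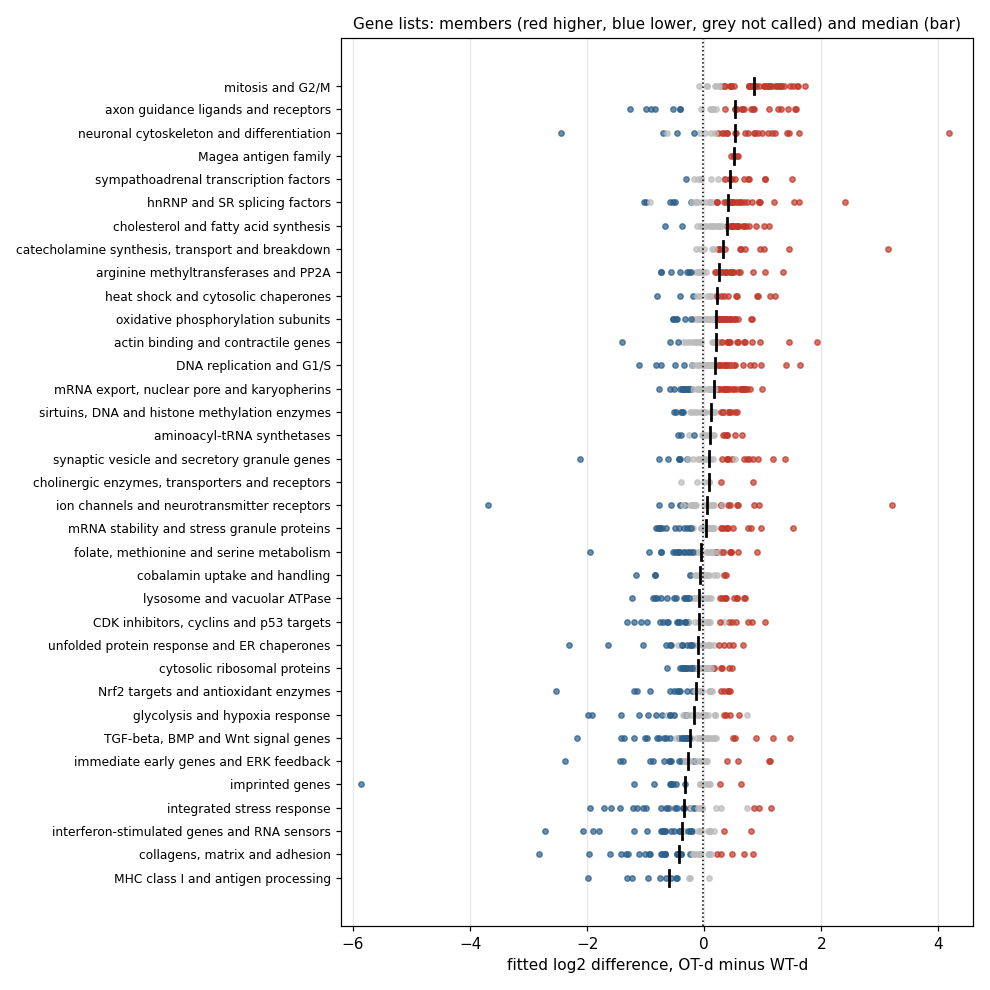
Fitted log2 difference, OT-d minus WT-d, of each tested member of 35 gene lists, coloured by call, with the list median as a bar and the median of all genes as a dotted line. Lists are ordered by median, from MHC class I at log2 -0.60 to mitosis and G2/M at 0.85, and most lists hold members on both sides.

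Whether OT and WT differed by the same amount in proliferation medium was tested as the difference of differences. Over all genes 5687 passed (35.0%), 3347 with a more positive and 2340 with a more negative OT effect in differentiation medium. Across the 16240 genes the differences in the media correlated at r = 0.49 as a description, the arrays being shared in part and genes not being independent replicates. Agtr2 was 9.26-fold higher in OT-d than WT-d but log2 -0.27 in proliferation medium (adjusted p = 0.54), where 1 of the 4 OT-p samples was well above background, and the change between media was log2 3.48 (adjusted p = 7.38e-06). Olfr78 (log2 -0.011 in proliferation medium) and Osgin1 (log2 -0.13) differed here but did not pass in proliferation medium, with changes between media of log2 2.06 and -2.40 (adjusted p = 5.37e-10 and 2.51e-09). Th went from log2 -0.16 in proliferation medium (adjusted p = 0.0777) to 0.63 here (change 0.79, adjusted p = 1.09e-05), while Ddc and Dbh were higher in OT in both media, by log2 1.51 and 0.67 in proliferation medium. Cd320 did not pass in proliferation medium (log2 -0.13, adjusted p = 0.261) and its change between media passed (log2 -0.71, adjusted p = 0.00033). Gpm6b and Dlk1 differed strongly in both media, at log2 3.89 and -4.62 in proliferation medium. Pcolce was low in OT in both media, by log2 -3.12 in proliferation medium, and Pdlim3 was higher in OT in both (log2 2.55 in proliferation medium, change -0.62, adjusted p = 0.0201, and 0.0821 without WT-d replicate 2). The mitotic list had a median of log2 0.12 in proliferation medium against 0.85 here, the sterol list -0.22 against 0.39, and MHC class I -0.61 against -0.60. These leading genes were chosen on OT-d against WT-d, which is part of the tested contrast.

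**Figure D4:**
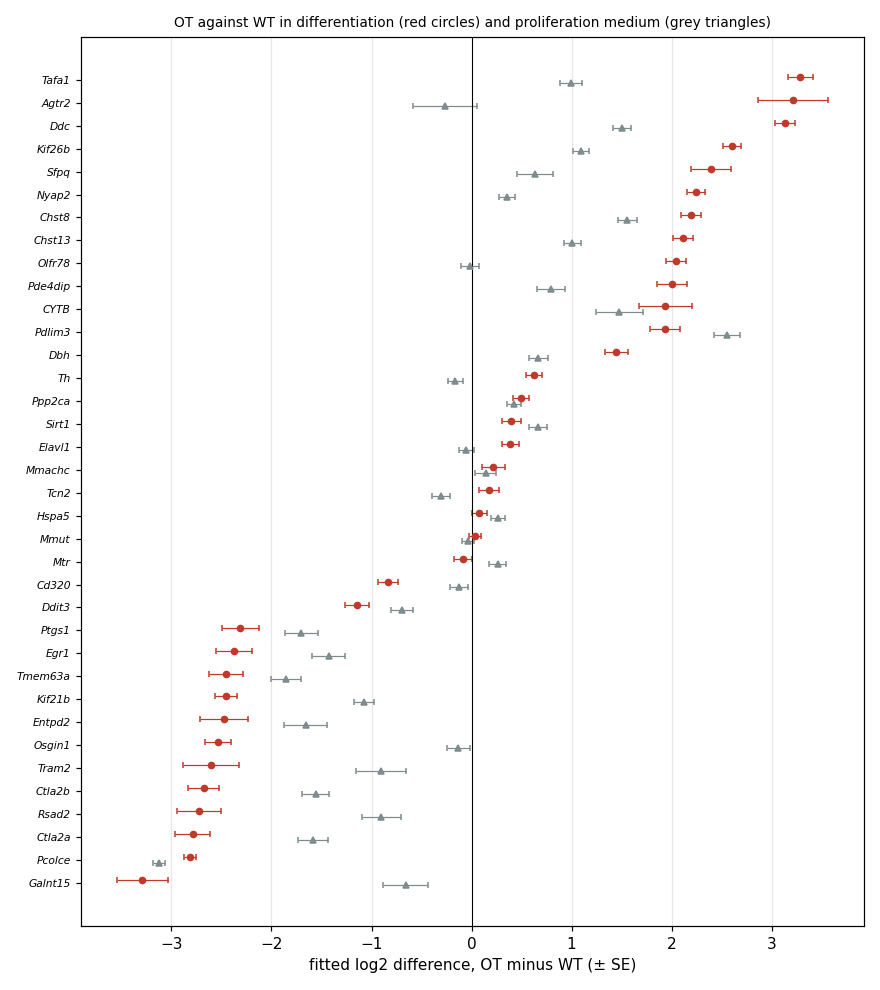
Fitted log2 difference of OT from WT with its SE for the leading genes and the panel of cobalamin, stress and catecholamine genes, in differentiation medium as red circles and in proliferation medium as grey triangles. Agtr2, Olfr78 and Osgin1 lie near 0 in proliferation medium, whereas Ddc, Pdlim3 and Pcolce lie far from 0 in both.

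OT-d was also set against TO-d, the line with the cobalamin-binding fusion in the same medium, a comparison that shares the OT-d samples, and 6489 genes passed (40.0%). Ddc was 9.30-fold higher in OT-d than in TO-d (adjusted p = 4.36e-16), Th 1.57-fold and Agtr2 11.3-fold. Gpm6b was 24.8-fold higher in OT-d than in TO-d, whereas Dlk1 did not pass (log2 -0.24, adjusted p = 0.712). Sfpq and Pde4dip did not pass between OT-d and TO-d (log2 0.074 and 0.25, adjusted p = 0.82 and 0.235), nor did CYTB (log2 0.58, adjusted p = 0.104). Entpd2 did not pass either (log2 0.035, adjusted p = 0.933). Rsad2 and Osgin1 were lower in OT-d than in TO-d by log2 -2.03 and -3.19 (adjusted p = 2.91e-07 and 3.46e-14). In the cobalamin panel Mtr, Mmut and Tcn2 were lower in OT-d than in TO-d (log2 -0.62, -0.71 and -0.40, adjusted p = 1.95e-05, 1.61e-08 and 0.00361), and none passed against WT-d, and Hspa5 was lower by log2 -0.64 (adjusted p = 1.75e-06).

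By chromosome the calls were uneven. Of 572 genes tested on chromosome 13, 43.5% were lower and 12.9% higher in OT-d, with a median of log2 -0.17, against 25.1% and 26.7% over all genes, and the median on that chromosome was log2 -0.17 between the lines in proliferation medium. On the X chromosome 44.6% of 514 genes were higher and 13.2% lower, with a median of log2 0.16 here and 0.029 in proliferation medium. Chromosome 12 had 34.7% lower, and the medians of the other autosomes lay between log2 -0.074 and 0.060. All 3 mitochondrial genes tested were higher. Positions are those of the array design (mm8).

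**Figure D5:**
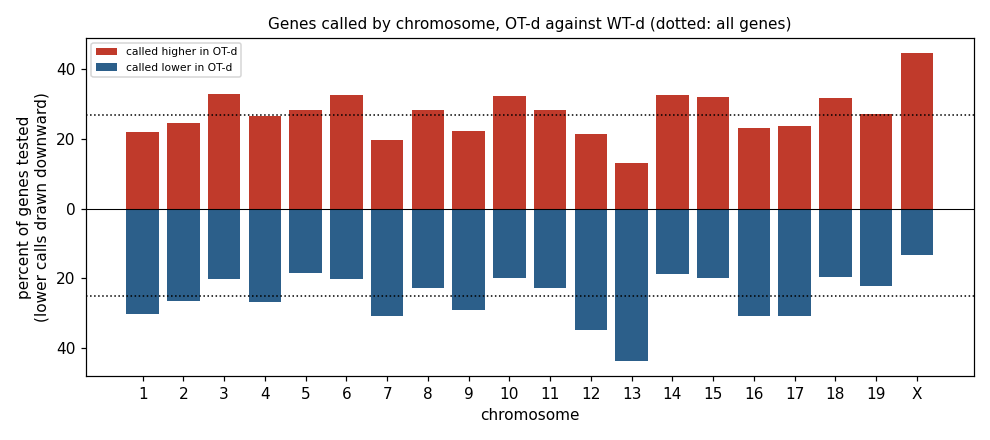
Share of tested genes called higher (red, upward) and lower (blue, downward) in OT-d than in WT-d on each chromosome, with the shares over all genes as dotted lines. Among these nuclear chromosomes, chromosome 13 has the largest share of lower calls and the X chromosome the largest share of higher calls.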

How the data were processed

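The members of the comparison and the gene lists were chosen with earlier results of these data known. The authors deposited scanner tables with raw intensity per spot and dye, made by Agilent Feature Extraction 10.5.1.1 on a design of build mm8 per the file headers, and a series table of linear intensity per spot whose scaling is not given in the sources used here; 0 or 1 marks for other spot properties (outlier, saturated, well above background) are the deposited ones per the file headers. Each sample was read from the channel of its own dye. Spots with an outlier mark or with a local background over 3 times the sample's median, 0.3075% of values, were left out, the latter a choice made after the files were seen. Mean signals were corrected by normexp with an offset of 50, the 1639 control spots removed, and loess within and Aquantile between arrays applied (limma 3.58.1, R 4.3.3). Of 41174 probes 24490 were named by accession, 6234 by symbol and 2391 by synonym through RefSeq, and 8059 kept the file's name. The brightest probe stood for a gene. A gene was tested if every sample of any of the 6 groups read it well above background, which kept 16240 of 27595 names.

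All 24 samples on 12 arrays were fitted as separate channels with group means and a dye term, intraspot correlation 0.4575, 17 residual degrees of freedom, and empirical Bayes moderation, and p-values were adjusted by Benjamini-Hochberg over all genes tested (called under 0.05). Genes with a missing spot, 449 in all, were fitted on the samples left, and 168 of them had fewer than 4 values in OT-d or WT-d. The fit was tried on simulated data with the array layout of this comparison and 15791 genes. All differences between groups were removed and a small number of genes then changed, with normal noise. The fit recovered 100% of 2-fold and 84% of 1.41-fold changes, with 13 false calls, 6.60% of the calls made. Far more genes were called in the real data, so these shares need not hold there. Named genes were the 12 with the largest change per direction whose groups did not overlap and that were well above background in all 8 samples, the 4 largest bounds per direction, a fixed panel of cobalamin, stress and catecholamine genes, and at most 4 called members per direction of each list, with members that did not pass where a sentence needed them. Maoa, Slc18a2, Mki67, Ccnb2, Ube2c, Jdp2 and Meg3 were named after their values were seen. The array partner's medium as a covariate was likewise added after the data were seen. Promoter windows are those of RefSeq on GRCm38.p6.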

Additional observations from a re-analysis of the deposited data

Results flagged for a closer look

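In a group of 4 samples a sample was marked where its gap to the nearest other exceeded 0.829 of the group's range (Dixon), and about 1 in 20 groups would be marked by chance. Of 371 pairs of a named gene and a group, 32 were marked, with OT-d replicate 3 the stray sample in 8, WT-d replicate 4 in 7 and WT-d replicate 2 in 7. Values below are normalized log2 intensities, set against the range of the other 3 samples. OT-d replicate 3, the OT-d sample whose array partner was differentiated, was high for Ctla2b (10.55 against 10.20 to 10.22), Dlk1 (7.97 against 6.19 to 6.47), Entpd2 (8.54 against 8.09 to 8.17), Hnrnpdl (11.98 against 11.65 to 11.68), Itga1 (8.69 against 8.37 to 8.42) and Scn3a (8.03 against 7.58 to 7.60). It was low for Nqo1 (6.91 against 7.09 to 7.12) and Ppp2r2a (10.25 against 10.94 to 11.00). WT-d replicate 2 was high for Ddc (8.53 against 8.18 to 8.24), Itga1 (7.83 against 7.53 to 7.57), Pnmt (7.56 against 6.77 to 6.84) and Txn1 (14.40 against 13.75 to 13.86). It was low for CYTB (14.48 against 15.26 to 15.40), Chrnb2 (8.78 against 9.28 to 9.32) and Sema3f (8.38 against 9.02 to 9.14). WT-d replicate 4, the WT-d sample with a proliferating array partner, was high for Ccnb2 (9.47 against 7.96 to 7.98), Cdk1 (11.20 against 10.00 to 10.13), Gpm6b (7.24 against 6.73 to 6.77), Mcm3 (10.25 against 9.19 to 9.32), Mcm5 (10.59 against 7.05 to 7.40), Nsdhl (8.02 against 7.58 to 7.65) and Rsad2 (10.50 against 10.45 to 10.46). OT-d replicate 1 was high for Rbm3 (12.71 against 12.43 to 12.46). It was low for Sel1l (7.51 against 7.75 to 7.79), Tcn2 (9.00 against 9.08 to 9.09) and Tlx2 (8.61 against 8.91 to 8.94). OT-d replicate 4 was high for H2-K1 (13.26 against 13.10 to 13.13). It was low for Isg20 (8.94 against 9.22 to 9.28) and Pcolce (11.11 against 11.20 to 11.21). WT-d replicate 1 was low for Ensa (8.27 against 8.78 to 8.88) and Pdlim3 (8.83 against 9.13 to 9.16). WT-d replicate 3 was high for Osgin1 (11.56 against 11.35 to 11.36). What sets these samples apart was not tested.

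The OT effect differed between media, by the test of the difference itself, for 28 of the 36 leading and panel genes, where 35.0% of all genes passed. The leading genes were chosen on one side of this contrast, so the share is a description. The fitted OT effect was more positive in differentiation medium, on the log2 scale, for Tafa1 (2.29, adjusted p = 2e-09), Agtr2 (3.48, adjusted p = 7.38e-06), Ddc (1.63, adjusted p = 1.36e-08), Kif26b (1.51, adjusted p = 6.06e-09), Sfpq (1.77, adjusted p = 2.93e-05), Nyap2 (1.89, adjusted p = 4.76e-10), Chst8 (0.63, adjusted p = 0.001), Chst13 (1.10, adjusted p = 1.26e-06), Olfr78 (2.06, adjusted p = 5.37e-10), Pde4dip (1.21, adjusted p = 9.53e-05), Tcn2 (0.48, adjusted p = 0.0072), Elavl1 (0.44, adjusted p = 0.00487), Th (0.79, adjusted p = 1.09e-05) and Dbh (0.78, adjusted p = 0.000342). It was more negative there for Galnt15 (-2.63, adjusted p = 3.96e-06), Ctla2a (-1.20, adjusted p = 0.000339), Rsad2 (-1.83, adjusted p = 5.3e-05), Ctla2b (-1.12, adjusted p = 0.000201), Tram2 (-1.69, adjusted p = 0.00135), Osgin1 (-2.40, adjusted p = 2.51e-09), Kif21b (-1.38, adjusted p = 4.14e-07), Tmem63a (-0.60, adjusted p = 0.0451), Egr1 (-0.94, adjusted p = 0.0043), Cd320 (-0.71, adjusted p = 0.00033), Mtr (-0.35, adjusted p = 0.0339) and Ddit3 (-0.45, adjusted p = 0.0333). For Pdlim3 (-0.62, adjusted p = 0.0201) and Pcolce (0.31, adjusted p = 0.00658) the change ran against the sign of the OT effect in differentiation medium.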

How the results depend on the processing

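Each choice of processing was changed singly. Under each setting 188 to 191 of the 191 named genes stayed on their side of the threshold in OT-d against WT-d, and no gene called in either direction changed sign. Ache, Asns, Irf9, Mmut and Pnmt, not called, took either sign across the 22 settings with a test. Those that crossed the threshold were Tlx2 under 12 of 22 settings, Mbnl1 with the mean over probes, Mcm5 on the 8 samples alone (adjusted p = 0.0516) or without WT-d replicate 2, Mmachc with samples of 1 RNA number averaged or without WT-d replicate 2, and Cdk1 without WT-d replicate 4. With Feature Extraction's processed signal 728 genes were over 2-fold higher and 930 over 2-fold lower, against 296 and 392, while 4274 and 4497 were called. A normexp offset of 16 in place of 50 gave 408 genes over 2-fold higher and 508 over 2-fold lower, with 4322 and 4106 called. The counts over 2-fold thus rose with the smaller offset. The cause of the larger counts with the processed signal, and the part of the offset in them, was not tested. In the difference between media, Elavl1 turned from log2 0.44 to -0.013 with the mean over probes (adjusted p = 0.931), and the cause was not tested. Loess without normalization between arrays gave 4405 higher and 2766 lower, the slide as a covariate 3880 and 3634, averaging samples of 1 RNA number 4146 and 3930, the 8 samples alone 3647 and 3524, and the medium of the array partner as a covariate, added after the data were seen, 4265 and 3863. Without each of the 8 samples in turn the counts ran from 3789 to 4431 higher and from 3582 to 4122 lower, from 276 to 400 over 2-fold higher, from 365 to 491 over 2-fold lower, and from 5176 to 6219 for the difference between media. Across all settings the median of all genes stayed between log2 -0.055 and 0.033, mitotic genes were higher for 31 to 42 of 46 members, catecholamine genes for 8 to 12 of 16, stress response genes lower for 14 to 21 of 32 and interferon genes for 16 to 19 of 30. With the replicate number as a block, where the dye term is dropped because the numbers contain the dye, 4214 genes were higher and 4074 lower, 298 and 394 over 2-fold, and 5729 differed between media. The deviations of same-numbered OT-d and WT-d samples correlated at -0.165, -0.143, -0.072 and 0.173, and 1 of 4 correlated best with its own number. Deviations from a group mean are tied to each other and there are only 4 pairs. Whether same-numbered samples share more than a number therefore cannot be told from these values. The arrays limit precision, with 4 samples a group and bounds in place of folds for genes near background. Fold sizes also depended on the processing, as the counts over 2-fold above show.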
